A study of Mus musculus with 36 samples.

Results

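H19, Igf2, Afp, Gpc3, Dlk1, Peg3, Mest, Cdkn1c and Plagl1 are genes of the fetal liver or of imprinted growth control that adult liver normally keeps at low levels. They were taken by symbol from the deposited expression table of mouse livers, and each of the 9 symbols matched 1 of its 49315 genes. The set was chosen by the H19 values of mice with an altered LXRalpha on chow, where H19 had been noted for its high level. H19 is therefore described with no test wherever those chow livers or their controls enter, and so is every member in that genotype comparison on chow.

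Liver polyA RNA of 36 male mice, 11 to 12 weeks old, was sequenced in 9 groups of 4 mice. CRISPR had been used to change tryptophan 441 of the nuclear receptor LXRalpha to phenylalanine, and the mice carried tryptophan on both copies (W/W), 1 copy of each (W/F) or phenylalanine on both copies (F/F). Each genotype was kept on normal chow, on the MASH diet Teklad TD.96121 for 4 weeks with daily vehicle for the last 2 weeks, or on that diet with 10 mg/kg of T0901317, an LXR agonist, by daily oral gavage for the last 2 weeks. MASH stands for metabolic dysfunction-associated steatohepatitis. The chow mice came from a cohort of their own, and diet and cohort cannot be told apart wherever the diet is set against chow. The labels pair LXRalpha with the symbol Nr1h2, although its usual symbol is Nr1h3, and Nr1h3 lay between 86.8 and 108 TPM in all group means. An amino acid change cannot be seen in expression values, so the genotype labels were not checked. Scd1, a fatty acid desaturase gene driven by LXR, averaged 7896, 514 and 13.1 TPM in W/W, W/F and F/F livers with vehicle and 3708, 38.3 and 63.9 TPM on chow. In what follows, vehicle means the MASH diet with vehicle, and the p-values measure the spread between these mice only.

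An imprinted gene is expressed from the maternal or the paternal copy alone, according to DNA methylation laid down in the germ line. H19 and Igf2 share a control region and enhancers, and in fetal tissue the maternal copy makes H19 while the paternal copy makes Igf2. H19, Igf2, Afp and Gpc3 are abundant in mouse liver before birth and are silenced after it, with the repressors Zhx2 and Zbtb20 among the known regulators. Several of these genes are known to return in regenerating, injured or cancerous liver. LXRalpha is a sterol-activated receptor that drives genes of lipid synthesis and cholesterol export.

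Values are TPM, which sum to 1000000 in each library and are scaled per length and so allow levels of different genes to be compared. The deposited TPM were multiples of what 1 read is worth, which put the depth at 18.1 to 35.8 M reads per library (M, 1000000 reads), with a median of 23.9 M. Tests were made with limma on log2(TPM + 1), a scale that understates the change of genes near or under 1 TPM, and p-values were adjusted over all 16638 genes that reached 1 TPM in 4 or more libraries. Igf2 and Dlk1 did not reach that level and were tested in a second fit over all 32923 genes with a value above 0. The composition of the RNA differed between groups: the median gene lay 0.699 higher on the log2 scale in F/F than in W/W with vehicle, 0.515 higher in W/F than in W/W with vehicle, and 0.487 lower in W/F with T0901317 than with vehicle. TPM rescaled to equal medians of gene ratios took these to 0.0368, 0.0219 and -0.0421. For Igf2 and Dlk1 only values on the deposited scale are given, so whether their calls hold on rescaled TPM is not stated.

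The summed markers of other liver cells differed between the groups as well. In W/W vehicle livers 8 cholangiocyte markers summed to 68.0 to 73.7 TPM, against 1192 to 1626 in W/F and 2971 to 3612 in F/F vehicle livers. Of these markers Krt7 averaged 0.255, 2.09 and 5.05 TPM and Krt19 1.51, 12.0 and 35.2 TPM in that order. Other markers of the list thus made up most of the sum. Summed over 12 stellate cell markers the ranges were 99.0 to 163, 655 to 886 and 1093 to 1337 TPM, and over 6 proliferation markers 2.07 to 3.49, 21.2 to 28.9 and 35.1 to 55.7 TPM. The 8 hepatocyte markers summed to 88816 to 115106 TPM in W/W and to 32847 to 36750 TPM in F/F vehicle livers. Of them 6 were called lower, against 7.13% of all tested genes (8 against 27.7% on rescaled TPM). Summed over 8 macrophage and Kupffer cell markers the levels were 166 to 321 TPM in W/W, 2567 to 3357 in W/F and 3125 to 4067 in F/F vehicle livers. These markers did not all move 1 way. Against W/W, 5 were called higher and 2 lower in W/F (61.6% and 6.83% of all tested genes). In F/F 5 were higher and 3 lower (69.3% and 7.13%). The Kupffer cell marker Clec4f averaged 72.3, 45.0 and 0.354 TPM in W/W, W/F and F/F, while Adgre1 averaged 6.11, 31.4 and 39.2 TPM. No marker of these 5 lists was at 0 in any group mean. In whole liver, fewer cells of a type and less RNA per cell cannot be told apart, and the part of these cell markers in the results that follow was not tested. Replicate 2 of W/F with T0901317 stood apart from its group, with 985 TPM of summed macrophage markers against 142 to 218 in the other replicates and 63645 TPM of hepatocyte markers against 90066 to 92962.

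**Figure D1:**
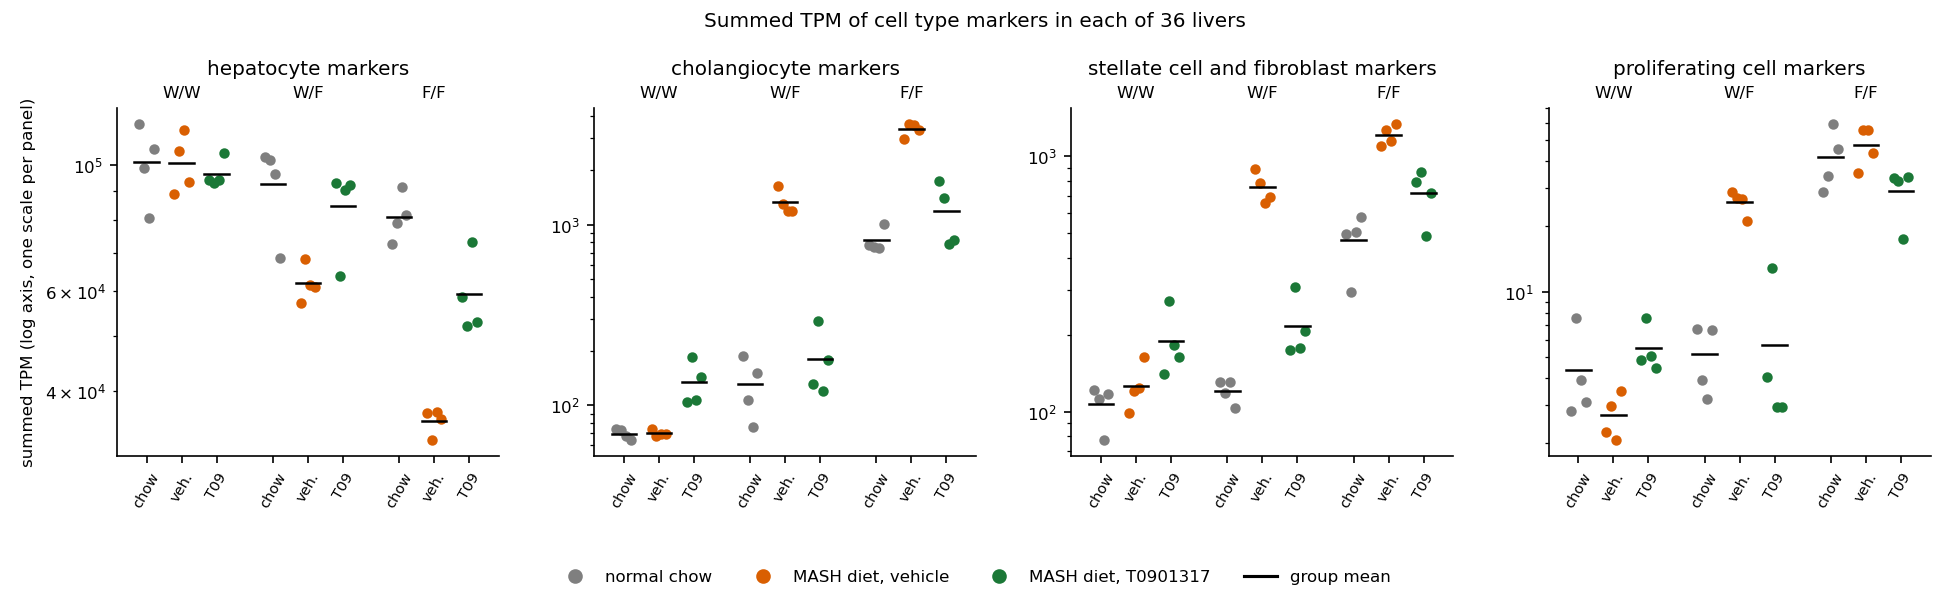
Summed TPM of the marker lists on a log axis, with 1 point per library and a bar at each group mean, for the 9 groups. The group means of the cholangiocyte, stellate and proliferation sums are highest in F/F vehicle livers and the mean hepatocyte sum is lowest there, at 35492 TPM.

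H19 is a long noncoding RNA whose transcript is also the precursor of miR-675. The gene (ENSMUSG00000000031) lies at chr7:142575529-142578143 on the minus strand of GRCm38, and the mature miR-675-5p and miR-675-3p lie inside it, 1010 and 1044 bases from its 5′ end, at chr7:142577112-142577133 and chr7:142577078-142577099. Their sequences, from RefSeq on GRCm38, are shown because they are the processed product of the member that moved most. Capitals mark the seed, bases 2 to 8, and each seed is held by 1 mature miRNA of the RefSeq table. Mature miRNAs were not measured in these polyA libraries.
mmu-miR-675-5p: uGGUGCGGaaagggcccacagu
mmu-miR-675-3p: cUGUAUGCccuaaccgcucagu

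With vehicle, H19 was higher in W/F than in W/W livers and higher again in F/F livers. Its level was 1.00, 1.19, 0.170 and 0.414 TPM in the 4 W/W livers, 77.0, 72.0, 126 and 101 TPM in W/F, and 233, 267, 197 and 224 TPM in F/F. No genotype overlapped another, and the lowest F/F liver lay above the highest W/F liver. The group means were 0.695 ± 0.482, 94.1 ± 25.0 and 230 ± 28.7 TPM (SD, n = 4), ratios of 135 for W/F and 331 for F/F over a W/W level that rests on 65 reads in all. The log2 difference was 5.82 (SE 0.415, adjusted p = 1.24e-12) for W/F and 7.13 (SE 0.415, adjusted p = 4.29e-15) for F/F, and 5.36 and 6.47 on rescaled TPM.

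On chow H19 was near 0 to 1 TPM in both W/W and W/F livers. The W/W livers had 0.433, 0.945, 0.923 and 0.532 TPM and the W/F livers 0.606, 0.646, 0.342 and 0.246 TPM, which overlap. The F/F chow livers had 17.4, 35.8, 152 and 119 TPM, so replicates 3 and 4 lay well above replicates 1 and 2 and all 4 lay above every W/W and W/F chow liver. The mean of 81.1 ± 64.8 TPM (SD, n = 4) was 115 times the W/W chow mean. In these livers, replicates 1 to 4, the proliferation markers summed to 28.9, 34.2, 59.3 and 45.3 TPM and the hepatocyte markers to 72489, 79023, 91209 and 81498 TPM, both higher in replicates 3 and 4. The stellate markers summed to 496, 293, 504 and 578 TPM and the macrophage and Kupffer cell markers to 608, 458, 728 and 640 TPM, both again higher in replicates 3 and 4. The cholangiocyte markers summed to 775, 748, 742 and 1011 TPM, close to each other in replicates 1 to 3 and highest in replicate 4. The part of those cells in the spread was not tested.

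Set against chow, W/F livers with vehicle differed in H19 by a ratio of 205 between means, a log2 difference of 6.0 (SE 0.415, adjusted p = 5.26e-13). The same comparison gave a ratio of 2.84 in F/F livers, a log2 difference of 1.95, with the range of the vehicle livers above that of the chow livers. In W/W livers the chow and vehicle ranges overlapped at 1.19 TPM or less. All 3 comparisons set livers of separate cohorts against each other.

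T0901317 was followed by opposite H19 differences in W/W and mutant livers. With the agonist the W/F livers had 1.45, 4.2, 1.1 and 1.16 TPM, far below the lowest W/F vehicle liver at 72.0 TPM. The log2 difference was -5.07 (SE 0.415, adjusted p = 4.26e-11), and it was -5.38 without replicate 2, the liver with the raised macrophage markers. In the W/F livers given agonist the cholangiocyte markers summed to 120 to 292 TPM against 1192 to 1626 with vehicle, the stellate markers to 174 to 307 against 655 to 886, and the proliferation markers to 2.93 to 12.8 against 21.2 to 28.9. In F/F livers H19 fell to 78.1, 73.1, 56.2 and 55.0 TPM, all below the lowest F/F vehicle liver, at a log2 difference of -1.80 (SE 0.415, adjusted p = 0.00175). There the cholangiocyte sums were 786 to 1745 TPM against 2971 to 3612 with vehicle. The mean of Krt7 was 3.70 against 5.05 TPM and that of Krt19 18.3 against 35.2 TPM. The part of these cells in the H19 differences was not tested. The F/F livers given agonist still held 19.2 times the H19 of W/W livers given agonist, a log2 difference of 4.03 (SE 0.415, adjusted p = 3.28e-09), whereas W/F and W/W livers given agonist did not pass the test (-0.547, adjusted p = 0.491).

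In W/W livers H19 was 1.56, 6.84, 2.98 and 2.30 TPM with the agonist, all above the highest vehicle liver at 1.19 TPM. The log2 difference of 1.30 (SE 0.415) had an adjusted p of 0.0401, which was lost without replicate 1, 3 or 4 of the vehicle group or replicate 2, 3 or 4 of the agonist group (0.975 to 1.51), and in the fit without the filter (adjusted p = 0.0845). Replicate 2, the highest, also had the highest sums of cholangiocyte markers (185 against 105 to 144 TPM) and stellate markers (272 against 140 to 182 TPM), and their part was not tested. The response to T0901317 differed from that of W/W livers by -6.37 on the log2 scale in W/F (SE 0.587, adjusted p = 1.12e-09) and by -3.10 in F/F livers (SE 0.587, adjusted p = 0.000296). All comparisons with W/W in a given diet and agent share the same 4 W/W livers, and the agonist and diet comparisons of a genotype share its vehicle livers.

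**Figure D2:**
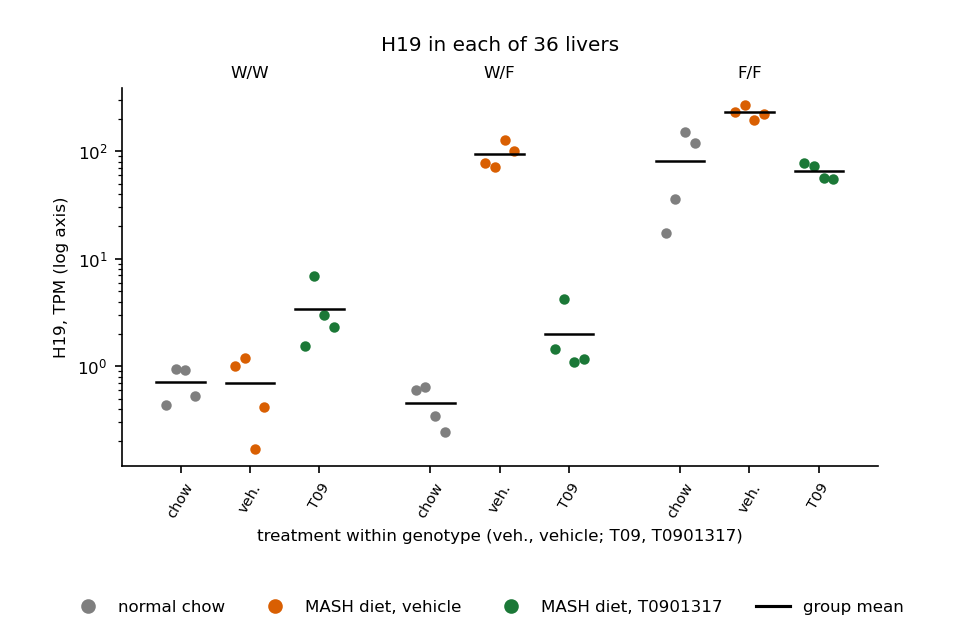
H19 in TPM on a log axis, with 1 point per liver and a bar at each group mean, by genotype, diet and agent. The W/F group means move from 0.460 TPM on chow to 94.1 with vehicle and 1.98 with T0901317, while the F/F means stay between 65.6 and 230 TPM.

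Igf2 encodes insulin-like growth factor 2, the main fetal growth factor of the insulin family. It lies 72.6 kb from H19, at chr7:142650766-142666816 on the minus strand. It stayed under 1.5 TPM in all 36 livers, and 62.8% of its exon bases are also part of the same-strand gene Gm49394, so reads counted for it may be incomplete. In vehicle livers it measured 0.0721, 0.177, 0.211 and 0.0858 TPM in W/W, 0.40, 0.308, 0.589 and 0.502 TPM in W/F, and 0.695, 0.443, 1.39 and 1.1 TPM in F/F. Both mutant genotypes lay above every W/W liver and overlapped each other. These levels rest on 31, 102 and 188 reads summed over the 4 livers of each group.

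In the fit over all genes Igf2 was 0.723 higher in F/F than in W/W with vehicle (SE 0.120, adjusted p = 6.65e-06) and 0.35 higher in W/F (SE 0.120, adjusted p = 0.0202) on the log2(TPM + 1) scale. For comparison, 43.1% and 34.3% of the 32923 genes were called higher in those comparisons. The W/F call was lost in 3 of the 8 fits that left out 1 liver. With T0901317 the level fell by 0.574 on the log2 scale in F/F livers (adjusted p = 0.00130), where the agonist group measured 0.433, 0.235, 0.0594 and 0.338 TPM. It fell by 0.367 in W/F livers (adjusted p = 0.0156), to 0.139, 0.0976, 0.151 and 0.0997 TPM, and 32.7% and 16.5% of all genes were called lower in W/F and F/F livers. In F/F livers vehicle exceeded chow by 0.525 (adjusted p = 0.000869, 28.1% of all genes higher), although the chow livers at 0.187, 0.0855, 0.406 and 0.588 TPM overlapped the vehicle livers. Replicates 3 and 4 of F/F chow were the high ones, as they were for H19.

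H19 exceeded Igf2 in most livers, and by far more in those with high H19. The ratio of H19 to Igf2 TPM in a liver had a median of 5.79 in W/W vehicle livers, with a range of 0.804 to 13.9. The medians were 208 in W/F vehicle livers (192 to 234), 288 in F/F chow (93.0 to 419), 269 in F/F vehicle (141 to 603) and 246 in F/F livers given T0901317 (163 to 946). In W/F livers on chow it was 1.77 (0.993 to 6.27), and with T0901317 it was 11.1 (7.24 to 43.0). The 2 genes thus did not move in proportion, and the Igf2 reads behind the ratios are few.

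Cdkn1c, also called p57KIP2, encodes an inhibitor of cyclin-dependent kinases that restrains growth and is expressed from the maternal copy. It lies 792 kb from Igf2 at chr7:143458339-143461050 on the minus strand, and 30.7% of its exon bases face an opposite-strand gene, Gm44732, from which its reads could not be separated if counting ignored strand. With vehicle it measured 1.92, 3.18, 1.98 and 2.31 TPM in W/W, 5.80, 10.4, 9.01 and 7.30 TPM in W/F, and 14.7, 16.9, 14.2 and 24.7 TPM in F/F livers. The genotypes stood in that order with no overlap, as for H19. The log2 difference from W/W was 1.44 in W/F (SE 0.237, adjusted p = 4.12e-06) and 2.46 in F/F (SE 0.237, adjusted p = 1.26e-10), and 0.911 and 1.73 on rescaled TPM, which both passed the test.

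On chow Cdkn1c measured 2.10, 2.52, 0.806 and 1.81 TPM in W/W, 1.59, 2.72, 2.39 and 0.857 in W/F, and 2.90, 2.10, 2.91 and 4.68 in F/F livers. All 3 ranges overlapped. The difference of vehicle from chow was 1.68 in W/F (SE 0.237, adjusted p = 3.83e-07) and 2.17 in F/F livers (SE 0.237, adjusted p = 9.77e-09), and it exceeded the W/W difference by 1.40 (adjusted p = 0.000831) and 1.89 (adjusted p = 6.21e-05). Cdkn1c was thus raised in mutant livers on the diet but, unlike H19, showed no separated level in F/F livers on chow.

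With T0901317 Cdkn1c fell in both mutant genotypes. The F/F livers measured 4.22, 6.79, 4.28 and 4.70 TPM, all below the F/F vehicle livers, a log2 difference of -1.62 (SE 0.237, adjusted p = 1.23e-05) that held at -1.34 on rescaled TPM. The W/F livers measured 3.95, 3.24, 3.72 and 2.84 TPM, a difference of -1.02 (SE 0.237, adjusted p = 0.000385) that missed the threshold on rescaled TPM (-0.513, adjusted p = 0.0649). In W/W livers the agonist group measured 3.43, 6.63, 2.86 and 3.44 TPM and overlapped the vehicle group (0.566, adjusted p = 0.134). The agonist response of W/F livers differed from that of W/W by -1.59 (adjusted p = 0.000187), and that of F/F livers by -2.19 (adjusted p = 2.46e-05).

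Plagl1, or Zac1, is a zinc finger transcription factor expressed from the paternal copy and known to regulate other imprinted genes. At chr10:13060504-13131694 on the plus strand it was among the lower members, under 1.6 TPM in every liver. With vehicle it measured 0.145, 0.246, 0.103 and 0.151 TPM in W/W, 0.850, 1.14, 0.758 and 0.551 TPM in W/F, and 1.21, 1.09, 1.37 and 1.56 TPM in F/F livers. Every mutant liver lay above every W/W liver, and the highest W/F liver lay just above the lowest F/F liver. The log2 difference from W/W was 0.644 in W/F (SE 0.126, adjusted p = 4.67e-05) and 0.988 in F/F (SE 0.126, adjusted p = 3.36e-08), and 0.454 and 0.665 on rescaled TPM, both past the threshold. Plagl1 passed the filter of 1 TPM only through the F/F vehicle livers, where it was highest. In limma's fit without that filter the adjusted p was 2.98e-05 in W/F and 1.63e-08 in F/F.

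Plagl1 shared with H19, Gpc3 and Dlk1 a separated level in F/F livers on chow. The F/F livers had 0.915, 0.579, 0.893 and 0.999 TPM of Plagl1, against 0.252, 0.489, 0.105 and 0.229 TPM in W/W and 0.199, 0.241, 0.282 and 0.134 TPM in W/F chow livers. Such a level is common, as 35.1% of all tested genes lay higher in every F/F than in every W/W chow liver. T0901317 was followed by 0.204, 0.190, 0.263 and 0.328 TPM in W/F livers, all below the vehicle livers (-0.542, adjusted p = 0.000403). The F/F livers given agonist had 0.821, 1.44, 0.724 and 0.495 TPM and overlapped F/F vehicle livers, and their difference of -0.322 (adjusted p = 0.0464) was lost on rescaled TPM (-0.165, adjusted p = 0.361) and in 6 of the 8 fits that left out 1 liver. F/F and W/W livers given agonist differed by 0.432 (adjusted p = 0.00386), or 0.244 on rescaled TPM (adjusted p = 0.0762).

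**Figure D3:**
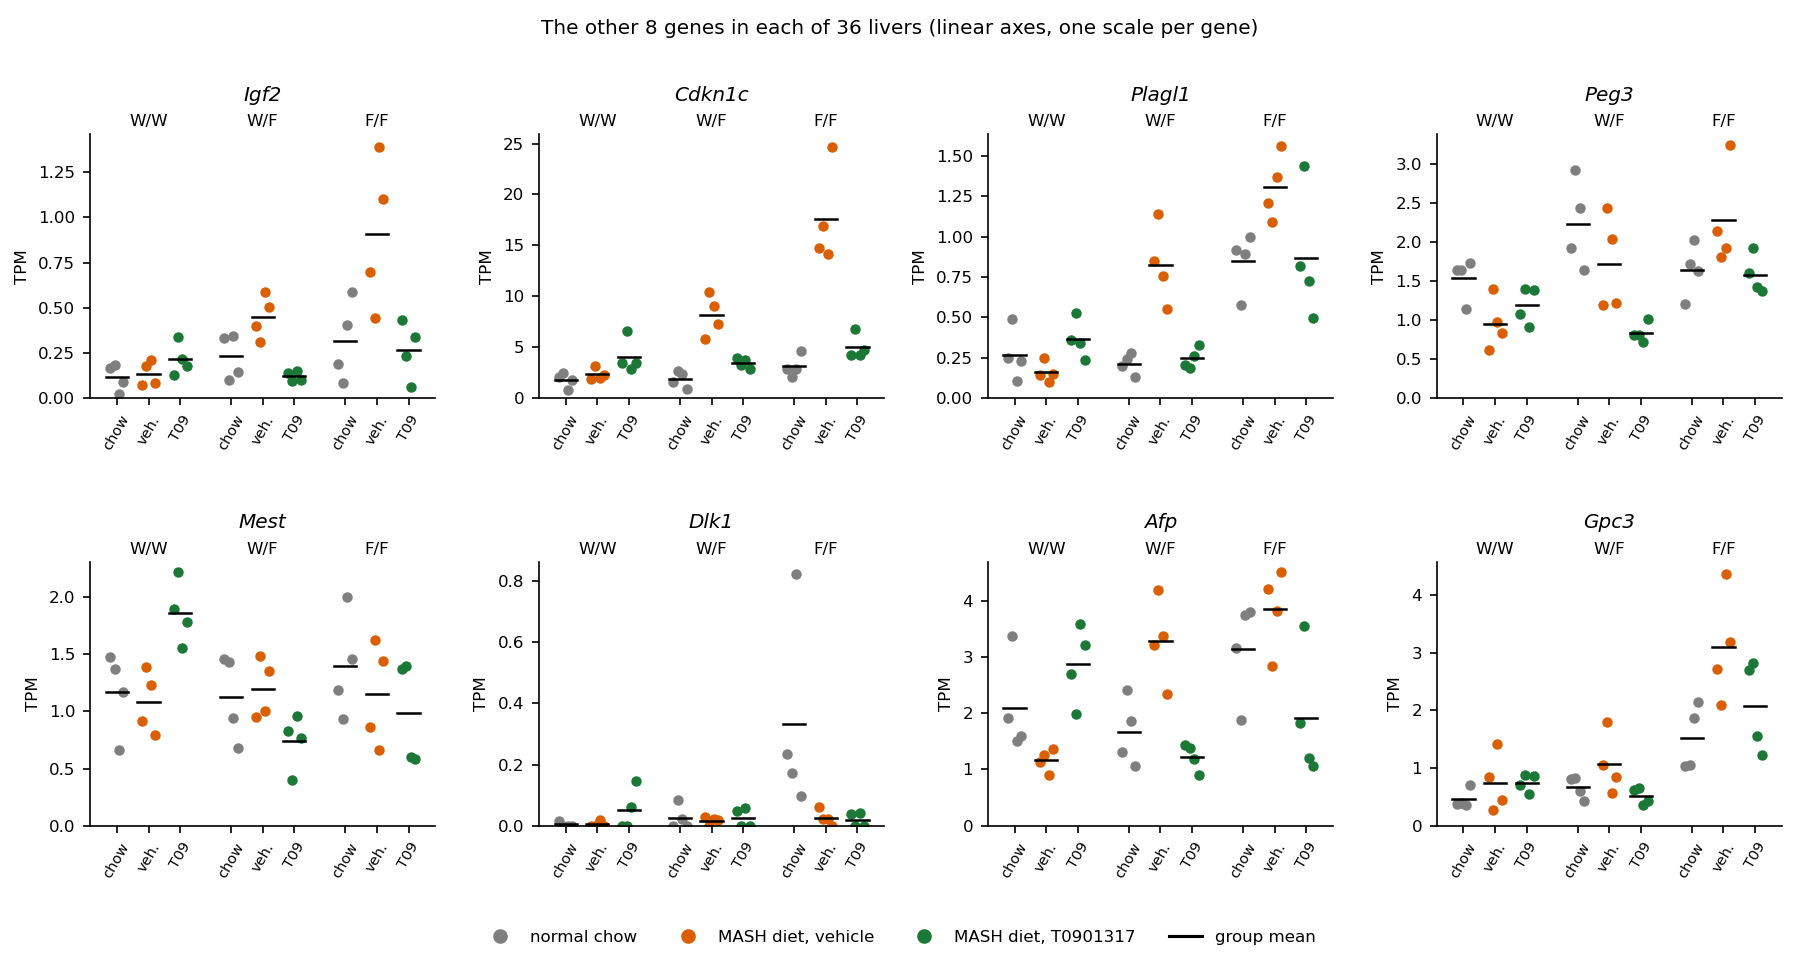
TPM of the other 8 members, with 1 panel per gene, 1 point per liver and a bar at each group mean, for the 9 groups. Cdkn1c separates the 3 genotypes with vehicle, Dlk1 is near 0 outside F/F chow livers, and Mest overlaps across most groups.

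Peg3 and Mest are expressed from the paternal copy. Peg3, a zinc finger protein encoded at chr7:6703892-6730431 on the minus strand, measured 0.612, 1.40, 0.975 and 0.833 TPM in W/W vehicle livers, 1.19, 2.44, 2.04 and 1.22 TPM in W/F, and 2.14, 1.81, 1.92 and 3.25 TPM in F/F. The F/F livers lay above all W/W livers, by 0.742 on the log2 scale (SE 0.156, adjusted p = 8.14e-05), and W/F livers overlapped W/W (0.466, adjusted p = 0.00908, lost without W/F replicate 2). Both differences were near that of the median gene, and on rescaled TPM neither passed (0.239, adjusted p = 0.155 and 0.105, adjusted p = 0.571). In W/F livers the agonist group of 0.810, 0.810, 0.723 and 1.01 TPM lay below the vehicle group (-0.541, adjusted p = 0.00307), again not on rescaled TPM (-0.21, adjusted p = 0.23).

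Mest, an enzyme of the alpha/beta-hydrolase family long used as a marker of mesoderm, differed between genotypes with the agonist. At chr6:30723547-30748465 on the plus strand, 23.1% of its exon bases face the opposite-strand gene Copg2. With vehicle it measured 0.915, 1.39, 1.23 and 0.797 TPM in W/W and 0.865, 1.63, 0.665 and 1.44 TPM in F/F livers, which overlapped (0.0322, adjusted p = 0.877, and -0.399, adjusted p = 0.0424 on rescaled TPM). With T0901317 the W/W livers had 1.90, 2.22, 1.56 and 1.78 TPM, above every W/W vehicle liver, although that difference did not pass (0.466, adjusted p = 0.0915). The W/F livers given agonist had 0.830, 0.401, 0.961 and 0.771 TPM and the F/F livers 1.37, 1.40, 0.603 and 0.584 TPM. All 8 lay below the lowest W/W liver given agonist, by -0.725 (SE 0.177, adjusted p = 0.00605) in W/F and -0.551 (SE 0.177, adjusted p = 0.00777) in F/F, and these calls held on rescaled TPM at -0.772 and -0.854.

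Dlk1 encodes a membrane protein of the Notch ligand family, known as a marker of fetal hepatoblasts and an inhibitor of fat cell formation. It lies at chr12:109452823-109463336 on the plus strand and was nearly silent. In 8 of the groups 1 to 12 reads were counted over 4 livers, and all the livers of those groups stayed under 0.15 TPM. The F/F chow livers had 0.233, 0.173, 0.823 and 0.0959 TPM, from 16, 8, 40 and 5 reads, so replicate 3 held most of the signal. F/F vehicle livers had 0.0603, 0.0204, 0.0202 and 0 TPM, and the difference of -0.347 from F/F chow passed the test (SE 0.0812, adjusted p = 0.00110) where 4.90% of all genes with a value were called lower.

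The other RNAs of the Dlk1 region, which are expressed from the maternal copy, were far more abundant and showed the same highest group. Meg3, a long noncoding RNA 77.7 kb beyond the end of Dlk1, measured 31.4, 36.4, 47.1 and 28.1 TPM in F/F chow livers, against 0.478, 0.445, 0.394 and 0.494 TPM in W/W chow. On chow the W/F livers lay between them, at 4.40, 2.19, 3.16 and 3.43 TPM, with no overlap on either side. Meg3 and its neighbour Rian were the only 2 of 23 tested genes on a list of further imprinted genes called higher in W/F than in W/W on chow, by 1.54 (adjusted p = 4.72e-05) and 1.03 (adjusted p = 0.00172), where 0.198% of all tested genes were called higher. No member was called in that comparison, in which 0.487% of tested genes were called in either direction, and the largest member difference tested was Peg3 at 0.337 (adjusted p = 0.868).

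Between chow and vehicle the Meg3 values ran opposite to those of H19, and under T0901317 both genes were lower in F/F livers. In F/F livers it fell from chow to 23.7, 24.6, 13.1 and 11.2 TPM with vehicle (-0.992, adjusted p = 0.000132), and T0901317 took it to 4.93, 5.40, 4.46 and 3.30 TPM (-1.73, adjusted p = 3.74e-07). In W/F livers it fell to 2.35, 0.702, 1.64 and 1.18 TPM with vehicle (-0.820, adjusted p = 0.000868), a comparison in which H19 went from under 1 TPM to at least 72.0 TPM. With vehicle Meg3 still exceeded W/W by 3.78 in F/F (adjusted p = 1.05e-15) and by 0.851 in W/F livers (adjusted p = 0.000484). Rian followed the same course in F/F livers, with means of 17.1 ± 3.63 TPM on chow, 6.66 ± 2.89 with vehicle and 1.49 ± 0.274 with T0901317 (SD, n = 4).

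**Figure D4:**
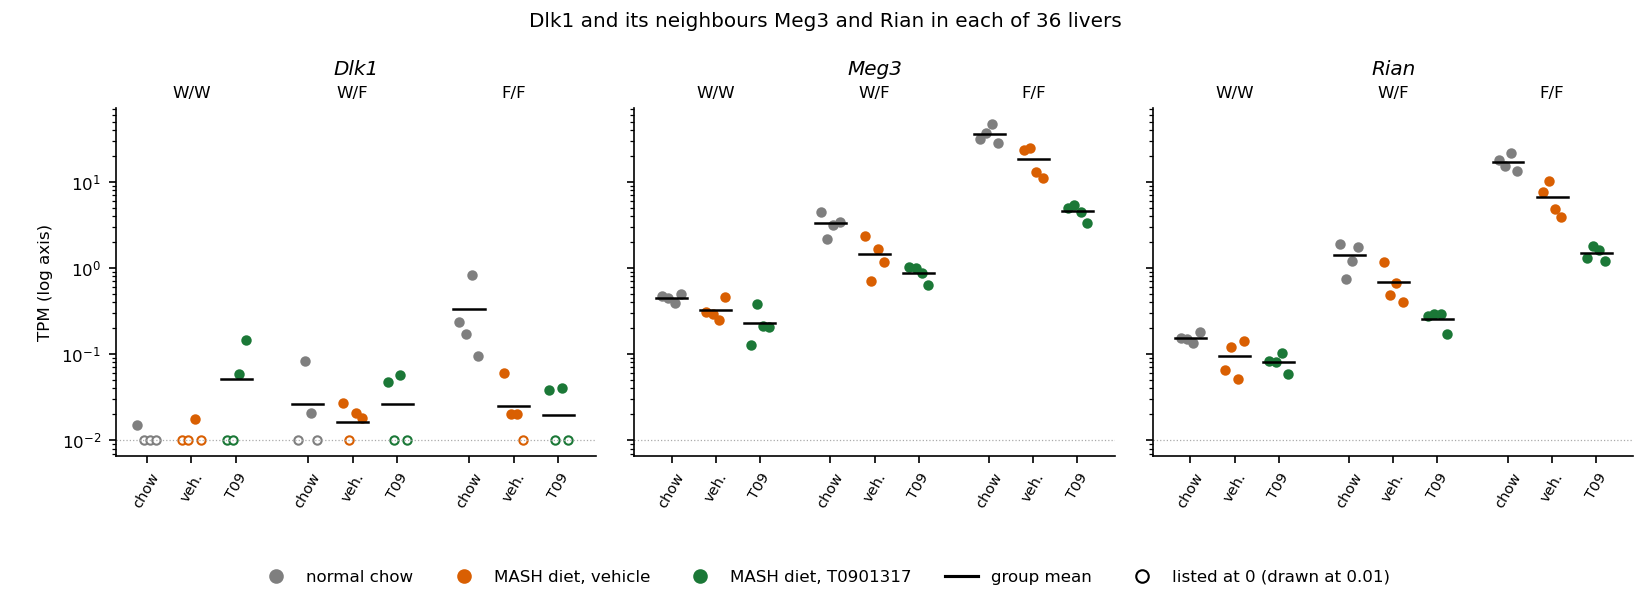
TPM of Dlk1, Meg3 and Rian by group, with 1 point per liver on a log axis, a bar at each group mean, and livers listed at 0 drawn as open circles near the foot of the axis. The F/F mean of Meg3 is 35.7 TPM on chow, 18.1 with vehicle and 4.52 with T0901317, while Dlk1 stays under 1 TPM throughout.

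Afp, alpha-fetoprotein, is the fetal counterpart of serum albumin, and Gpc3, glypican 3, is a heparan sulphate proteoglycan of the cell surface that restrains growth. Both serve as markers of liver cancer. The 250 bases before their RefSeq starts on GRCm38 are shown because these 2 classic fetal liver genes have unlike promoters, at chr5:90490464-90490713 on the plus strand for Afp and chrX:52613975-52614224 on the minus strand for Gpc3. Capitals mark each CG.
Afp: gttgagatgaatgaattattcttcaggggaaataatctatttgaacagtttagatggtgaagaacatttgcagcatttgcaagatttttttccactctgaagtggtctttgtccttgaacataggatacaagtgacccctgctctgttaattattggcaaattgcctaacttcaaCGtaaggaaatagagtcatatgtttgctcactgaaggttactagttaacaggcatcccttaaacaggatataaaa
Gpc3: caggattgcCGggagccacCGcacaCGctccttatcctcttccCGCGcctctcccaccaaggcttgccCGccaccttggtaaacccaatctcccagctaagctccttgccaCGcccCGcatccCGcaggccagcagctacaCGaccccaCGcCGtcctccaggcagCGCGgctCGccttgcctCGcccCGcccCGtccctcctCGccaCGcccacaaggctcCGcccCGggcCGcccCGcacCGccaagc

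The Afp window holds 1 CG and is 36% G or C, and 7.87% of 32851 RefSeq windows of that length hold fewer CG. The Gpc3 window holds 25 CG and is 71.6% G or C, and 89.3% of windows hold fewer. In all, 4 motifs were searched on both strands in the windows of the 7 members that RefSeq's table holds. TATAAA was found in the Afp window, at -7 to -2 from the RefSeq start, which is -30 to -25 from the GENCODE M21 start 23 bases downstream, and in 12.4% of all windows. AGGTCA, a part of the repeat named next, was found in 1 of 4 Igf2 windows and in 14.0% of all windows. AGGTCA repeated after any 4 bases, a direct repeat of the kind LXR binds, and GTTAAT followed by any base and ATTAAC, an HNF1 motif, were found in no member's window and in 0.0152% and 0.00913% of all windows. Only exact matches were searched, so no match says only that these letters are not in these 250 bases. The Afp window holds gttaattattggc and gttactagttaac, which come near the HNF1 motif without matching it.

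Afp measured 1.13, 1.26, 0.897 and 1.37 TPM in W/W, 3.22, 4.19, 3.38 and 2.35 TPM in W/F, and 4.22, 2.84, 3.83 and 4.52 TPM in F/F vehicle livers. All mutant livers lay above all W/W livers, and the mutant genotypes overlapped. The log2 difference was 0.972 for W/F (SE 0.214, adjusted p = 0.000199) and 1.15 for F/F (SE 0.214, adjusted p = 1.56e-05), and 0.540 (adjusted p = 0.0236) and 0.570 (adjusted p = 0.0151) on rescaled TPM. Its size was thus far below that of H19 in the same livers.

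T0901317 was followed by Afp differences of opposite sign in W/W and mutant livers. The W/W livers given agonist had 2.70, 1.99, 3.59 and 3.21 TPM, all above the W/W vehicle livers (0.825, SE 0.214, adjusted p = 0.00946). The W/F livers given agonist had 1.44, 1.38, 1.19 and 0.903 TPM, all below the W/F vehicle livers (-0.932, SE 0.214, adjusted p = 0.000349). The F/F agonist values of 1.82, 3.56, 1.21 and 1.07 TPM overlapped those of vehicle through replicate 2, and the difference was -0.795 (adjusted p = 0.00569), or -0.560 on rescaled TPM (adjusted p = 0.0523). The response of W/F livers differed from the W/W response by -1.76 (adjusted p = 1.56e-05), and the F/F response by -1.62 (adjusted p = 0.000262). With agonist, the W/F livers lay below W/W by 0.785 on the log2 scale (adjusted p = 0.0150), a call lost without replicate 3 or 4 of W/W or replicate 4 of W/F.

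Gpc3 was higher in F/F livers, and in W/F livers its difference from W/W did not pass the test. With vehicle it measured 0.844, 0.263, 1.42 and 0.438 TPM in W/W, 1.05, 1.79, 0.562 and 0.84 TPM in W/F, and 2.71, 2.10, 4.37 and 3.19 TPM in F/F. The F/F livers lay above all others, by 1.25 over W/W (SE 0.203, adjusted p = 2.07e-06; 0.727 on rescaled TPM, adjusted p = 0.00192), while W/F and W/W overlapped (0.255, adjusted p = 0.268). Gpc3 passed the filter of 1 TPM only through F/F livers. In limma's fit without that filter the adjusted p for F/F over W/W with vehicle was 5.62e-06. F/F livers given agonist, at 2.69, 2.82, 1.56 and 1.23 TPM, lay above the W/W livers given agonist, which ranged from 0.541 to 0.884 TPM (0.782, SE 0.203, adjusted p = 0.00134). On chow the F/F livers had 1.04, 1.05, 1.86 and 2.14 TPM against 0.382, 0.392, 0.356 and 0.704 TPM in W/W, and replicates 3 and 4 were again the higher ones.

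Afp, Peg3 and Mest were all above 0.6 TPM in every chow liver. Afp lay at 1.91, 3.37, 1.5 and 1.59 TPM in W/W, 1.32, 2.42, 1.86 and 1.07 TPM in W/F, and 3.17, 1.89, 3.76 and 3.80 TPM in F/F chow livers, which overlapped. Every W/W chow liver lay above every W/W vehicle liver in Afp, but this difference did not pass the test (-0.481, adjusted p = 0.146). In W/F livers Afp was higher with vehicle than on chow by 0.694 (SE 0.214, adjusted p = 0.00600), although the ranges overlapped. On rescaled TPM that call was lost (0.343, adjusted p = 0.149). Peg3 was 1.65, 1.65, 1.14 and 1.73 TPM in W/W, 1.92, 2.92, 2.44 and 1.64 TPM in W/F, and 1.21, 1.72, 2.03 and 1.63 TPM in F/F livers on chow, so its highest chow levels were in W/F livers, with an overlap. Its W/F level with vehicle was -0.259 from chow (adjusted p = 0.151), and -0.576 on rescaled TPM (adjusted p = 0.00106). Mest on chow was 1.48, 1.37, 0.659 and 1.17 TPM in W/W, 1.46, 1.43, 0.940 and 0.679 TPM in W/F, and 1.19, 0.930, 2.00 and 1.46 TPM in F/F livers, with no genotype apart from another.

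**Figure D5:**
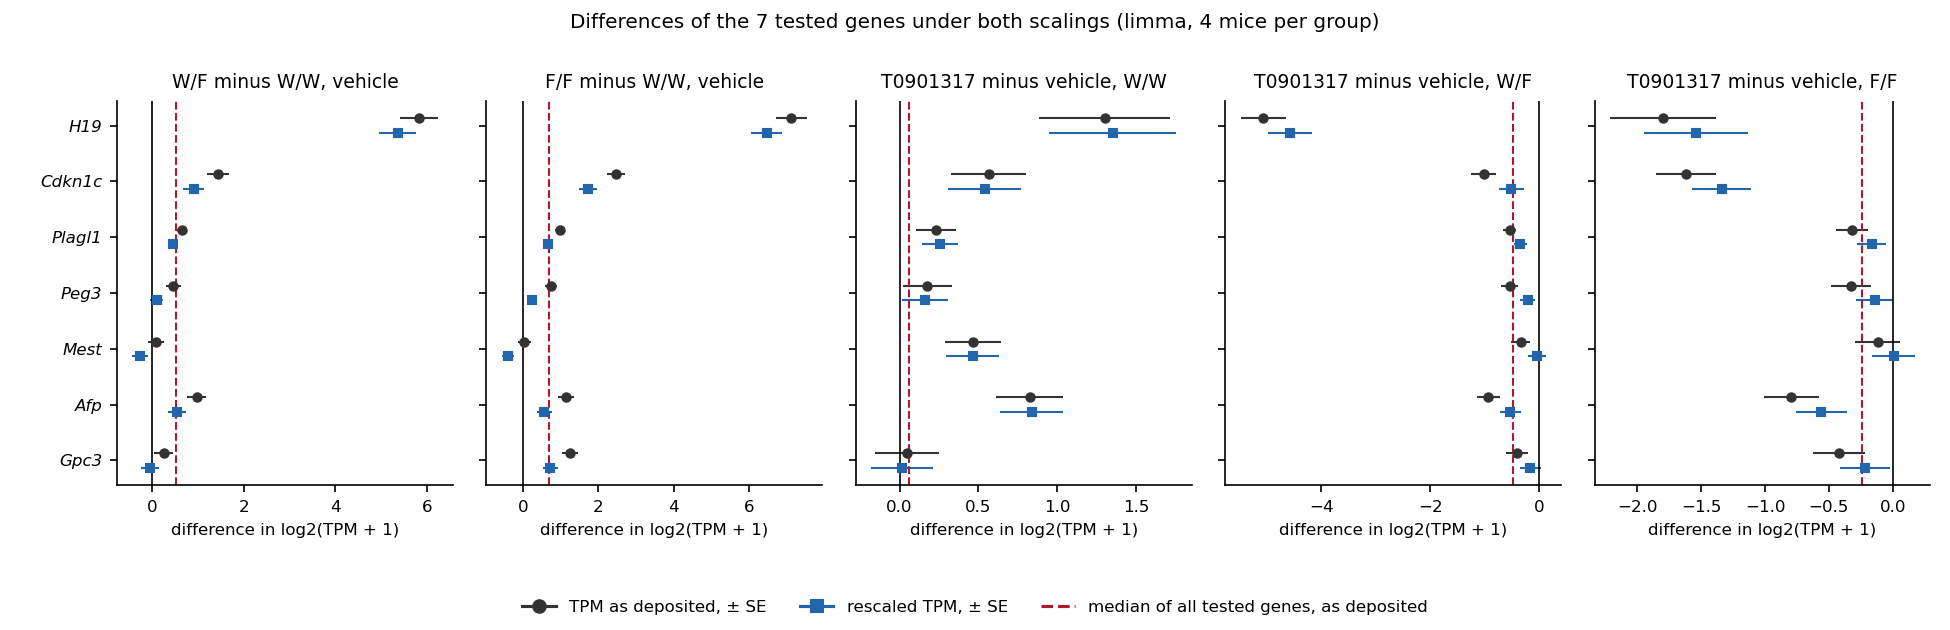
Log2(TPM + 1) differences of the 7 tested members in 5 comparisons, from deposited TPM (circles) and rescaled TPM (squares), with bars of 1 SE and the median of all tested genes on deposited TPM as a dashed line. In F/F against W/W with vehicle the line lies at 0.699, H19 at 7.13 and Mest at 0.0322.

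The number of members called has to be read against how many genes were called at all. With vehicle, 6 of the 7 tested members were higher in F/F than in W/W, and 69.3% of all tested genes were called higher (31.3% on rescaled TPM, where 5 members were called higher and 1 lower against 27.7%). Of these members Plagl1 passed the filter only through F/F vehicle livers, and Gpc3 only through F/F livers. In W/F against W/W with vehicle 5 were higher against 61.6% of all genes (27.8% and 4 members on rescaled TPM). With T0901317 against vehicle 5 were lower in W/F against 59.3% (27.3% and 3 members on rescaled TPM), and 4 were lower in F/F against 31.2% (8.12% and 2 members). Since so many genes were called on the deposited scale, these counts are not read as a result about the members. The same holds for groups without overlap. With vehicle, 64.4% of tested genes lay higher in every F/F than in every W/W liver, and 54.8% in every W/F liver. Under T0901317, 51.6% in W/F and 29.2% in F/F lay lower in every agonist than in every vehicle liver. On the log2(TPM + 1) scale H19, at 7.13, and Cdkn1c, at 2.46, lay farthest above the median gene in F/F against W/W with vehicle. That scale understates changes of genes near or under 1 TPM. By the ratio of group means Plagl1, at 8.11, lay above Cdkn1c, at 7.51.

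The remaining counts were read in the same way. T0901317 in W/W livers gave 2 higher, H19 and Afp, against 7.87% of all genes. With agonist, W/F gave 2 lower than W/W, Afp and Mest, against 6.23%, and F/F gave 3 higher against 56.3% and 1 lower against 6.96% (2 against 24.4% and 2 against 22.4% on rescaled TPM). The diet in W/W livers gave none called at an adjusted p under 0.05, where 12.9% of all genes were called in either direction. For the diet, 4 members were higher in W/F against 52.4% (on rescaled TPM 3 higher against 28.0% and 1, Peg3, lower against 26.8%). In F/F livers, H19 aside, 3 were higher against 46.5% (1 against 25.9% on rescaled TPM). F/F against W/W on chow is not counted, because that contrast chose the set. The T0901317 response was lower than in W/W for 6 members in W/F against 53.2% of genes (4 against 24.1% on rescaled TPM) and for 4 in F/F against 27.2% (3 against 10.1%). The diet response, H19 aside, was higher for 3 in W/F against 49.5% (3 against 21.1%) and for 3 in F/F against 41.5% (1 against 14.7%).

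Other genes of the same kinds were read from lists set by function. Of 17 tested fetal and oncofetal liver genes, 17 were higher in F/F than in W/W with vehicle, where 69.3% of all genes were. Their median log2 difference was 2.72 against 0.699 over all genes. On rescaled TPM 15 remained so, against 31.3% of all genes (median 2.21 against 0.0368). Spink1, a trypsin inhibitor, differed by 4.73 (adjusted p = 1.30e-12), Cd24a, a surface glycoprotein of progenitor cells, by 4.56 (adjusted p = 3.51e-15), and Epcam, an adhesion molecule of biliary and progenitor cells, by 4.18 (adjusted p = 3.05e-13). T0901317 was followed by 15 lower and 1 higher in W/F livers, where 59.3% of all genes were lower. In F/F livers 13 were lower, where 31.2% of all genes were. On rescaled TPM W/F livers had 14 lower and 1 higher, against 27.3% lower, and F/F livers 10 lower, against 8.12%. Epcam and Sox9 of this list are also on the list of cholangiocyte markers, all 8 of which were called higher in the same comparison.

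The further imprinted genes were mixed once rescaled. Of the 23 tested, 19 were higher in F/F than in W/W with vehicle and 1, the amino acid transporter Slc38a4, was lower. Of all genes, 69.3% were higher and 7.13% lower. On rescaled TPM 11 were higher and 7 lower, against 31.3% and 27.7%. The potassium channel gene Kcnq1 differed by 2.04 (adjusted p = 8.35e-10; 1.49 rescaled) and the receptor adaptor Grb10 by 1.84 (adjusted p = 7.25e-13; 1.30 rescaled). Of 16 tested genes of the insulin-like growth factor axis, 10 were higher and 2 lower, and 6 higher and 5 lower on rescaled TPM, again where 69.3% and 31.3% of all genes were higher. Among those higher were the binding proteins Igfbp7 at 2.98 (adjusted p = 8.17e-14) and Igfbp1 at 2.92 (adjusted p = 9.57e-06).

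Among 24 tested regulators, 19 were higher and 2 lower in F/F than in W/W with vehicle, against 69.3% and 7.13% of all genes. On rescaled TPM 8 were higher and 7 lower, against 31.3% and 27.7%. These counts lie near the shares over all genes and are not read as a result about the regulators. Dnmt1, the maintenance DNA methyltransferase, differed by 1.71 (adjusted p = 1.84e-09), its partner Uhrf1 by 2.39 (adjusted p = 5.58e-09) and the de novo methyltransferase Dnmt3a by 2.17 (adjusted p = 3.37e-12). Zhx2 and Zbtb20, the postnatal repressors named above, differed by 0.672 (adjusted p = 2.38e-06) and 0.769 (adjusted p = 1.47e-05), close to the median gene, and on rescaled TPM they did not pass (-0.123, adjusted p = 0.356 and -0.0306, adjusted p = 0.880). Zhx2 averaged 10.00 TPM in W/W and 16.5 TPM in F/F vehicle livers. Of 4 tested genes of the albumin family other than Afp, 2 were lower on the deposited scale, against 7.13% of all genes. On rescaled TPM 4 were lower, against 27.7%. Albumin, the adult relative of Afp, was 49754 TPM in W/W and 19352 TPM in F/F vehicle livers (-1.35, adjusted p = 2.23e-07), and Afm, another relative, also fell (-1.58, adjusted p = 1.18e-10). The 4 other glypicans tested were called higher on the deposited scale, where 69.3% of all genes were. On rescaled TPM 2 were higher, against 31.3% of all genes, and 1 lower, against 27.7%. Among them Gpc6 and Gpc2 were higher in F/F by 1.09 and 0.926, while Gpc4 turned from 0.397 on the deposited scale to -0.442 on rescaled TPM.

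The genes whose pattern over the 9 group means was most like that of H19 were Map4k4, Timp1, Sybu, Lig1 and Frzb, at root mean square distances of 0.0876 to 0.10 between standardised profiles, against a median of 0.552 over 11202 genes. Timp1, a metalloproteinase inhibitor made in fibrosis, averaged 0.331 TPM on chow, 46.9 with vehicle and 1.82 with T0901317 in W/F livers, and 18.2, 76.4 and 26.9 TPM in F/F livers. For Afp the nearest were Pi4ka, Slc20a2, Kremen1, Ccng1 and Avpi1, at 0.227 to 0.304 against a median of 0.847. For Gpc3 they were Sdf2, Zbtb11os1, Fam216a, Kazald1 and Eif1ad, at 0.175 to 0.21 against 0.652.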

How the data were processed

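The authors deposited 1 table of TPM for 36 livers. Per the submitters' processing notes, Trimmomatic 0.36, STAR 2.5.2b, featureCounts and Subread 1.5.2 were used with GRCm38. The annotation and strand setting are not given in the sources used here. Reads were recovered from the TPM steps with GENCODE M21 exon lengths, and 93.7% to 95.7% of low values per library came out whole within 0.1. Tests used limma 3.58.1 in R 4.3.3, with trend, on log2(TPM + 1) of all 36 libraries, a filter of 1 TPM in 4 libraries, and Benjamini-Hochberg adjustment with a threshold of 0.05. Rescaled TPM were divided by median-of-ratios factors over 13950 genes. The test was tested on simulated data. Members and lists were chosen with earlier results of these data known. From each list, genes are named from the 4 with the largest called difference in F/F against W/W with vehicle and at least 1 TPM in a group mean, plus Zhx2, Zbtb20 and Meg3 (Slc38a4 and Sox9 were named after their values were seen), and pattern neighbours are the 5 nearest genes with at least 5 TPM in a group mean. Alternatives were another pseudocount, other filters, rescaled TPM, voom on recovered reads, fits of only the groups compared, a replicate block and leaving out each library. Replicate numbers were not taken as pairs in the main fits. Over 144 same-numbered pairs the correlation of deviations was -0.174 to 0.297, with a median of 0.013.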

Additional observations from a re-analysis of the deposited data

Results flagged for a closer look

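In 4 of 81 groups of 4 livers a single liver stood apart from the other 3 by more than Dixon's 95% limit, where chance alone would be met in about 1 of 20 groups. H19 was 4.2 TPM in replicate 2 of W/F with T0901317, against 1.1 to 1.45 TPM in the others. Gpc3 was 0.704 TPM in replicate 4 of W/W on chow, against 0.356 to 0.392 TPM. Peg3 was 1.14 TPM in replicate 3 of W/W on chow, against 1.65 to 1.73 TPM. Cdkn1c was 6.63 TPM in replicate 2 of W/W with T0901317, against 2.86 to 3.44 TPM. The first of these livers also had the raised macrophage markers given above, and the last had the highest cholangiocyte and stellate marker sums of its group.

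Several responses differed between genotypes in limma's interaction test at an adjusted p under 0.05, on the log2(TPM + 1) scale. The T0901317 response was lower in W/F than in W/W livers by an interaction of -6.37 for H19, -1.76 for Afp, -1.59 for Cdkn1c, -0.806 for Mest, -0.775 for Plagl1, -0.716 for Peg3 and -0.462 for Igf2. In F/F against W/W livers it was -3.10 for H19, -2.19 for Cdkn1c, -1.62 for Afp, -0.669 for Igf2 and -0.555 for Plagl1. The diet response was higher in W/F than in W/W livers by 1.40 for Cdkn1c, 1.18 for Afp and 0.701 for Plagl1. In F/F against W/W livers the diet response differed by 1.89 for Cdkn1c, 0.687 for Peg3, 0.498 for Igf2 and 0.444 for Plagl1, and by -0.348 for Dlk1, whose signal lies in the F/F chow livers. On rescaled TPM the T0901317 values of Mest and Peg3 in W/F and of Plagl1 in F/F, and the diet values of Peg3 and Plagl1 in F/F, missed the threshold. Values of Igf2 and Dlk1 on that scale are not given here. The diet responses also hold the difference between cohorts. The Igf2 values in W/F (T0901317) and in F/F (diet) missed the threshold in 9 and 8 of the 16 fits that left out 1 liver, and the Plagl1 diet value in F/F in 9 of 16.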

How the results depend on the processing

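Igf2 and Dlk1 rest on few reads and on the fit with no filter, and calls of Peg3, Mest, Afp, Plagl1 and Cdkn1c depend on the scaling as given above. The call of Gpc3 for the diet in F/F livers (0.697, adjusted p = 0.00435 in limma) was also lost on rescaled TPM (0.433, adjusted p = 0.0688). Unless said otherwise, the counts that follow include H19 also where it has no test of its own. Those are the diet comparisons of W/W and F/F and both diet responses. The chow livers chose H19, so its part in those counts is no test. Rescaled TPM gave counts of called members of 3 for T0901317 in W/F and 2 for T0901317 in F/F, in place of 5 and 4. For the diet in F/F it gave 2 in place of 4 with H19, and 1 in place of 3 with H19 aside. For the diet response of F/F against W/W the counts were the same, 2 in place of 4 with H19 and 1 in place of 3 with H19 aside. With a filter of 5 TPM only H19 and Cdkn1c remained among 11103 genes, so that fewer genes tested gave 2 called members in most comparisons, 1 for T0901317 in W/W, and among livers given T0901317 1 for F/F and 0 for W/F against W/W. T0901317 in W/W gave 1 in place of 2 with no filter, with only the groups compared and with voom on recovered reads, and voom gave 2 for the diet response of F/F against W/W.

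Leaving out 1 liver at a time moved the counts to 1 to 2 for T0901317 in W/W, 5 to 6 in W/F and 3 to 4 in F/F. For the diet they were 0 to 1 in W/W, 4 to 5 in W/F and 3 to 4 in F/F. Against W/W, W/F gave 0 on chow, 4 to 5 with vehicle and 1 to 2 with T0901317, and F/F gave 6 with vehicle and 4 to 5 with T0901317. The T0901317 responses gave 6 in W/F and 3 to 5 in F/F, and the diet responses 4 in W/F and 3 to 5 in F/F. Counts for the diet in W/W and F/F and for the diet responses include H19, which has no test there. The difference of Mest between F/F and W/W with vehicle turned from 0.0322 to -0.399 on rescaled TPM and -0.145 with voom, and ran from -0.0736 to 0.147 with 1 liver left out (below 0 at -0.00460, -0.0353, -0.0736 and -0.0373). The cause was not tested. With the replicate number as a block, the 94 values and counts kept their direction and side of the threshold (for example 6 members higher in F/F than in W/W with vehicle). Of 36 libraries, 12 correlated best with one of their own number. The count met by chance is not given, so this cannot decide whether the numbers pair the livers.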
